A study of Mus musculus with 24 samples.

Results

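The genes described here encode the nuclear subunits of the mitochondrial oxidative phosphorylation complexes, together with the complex I assembly factors that share their names. They were taken by symbol from the array annotation: every gene with a single-symbol probe set whose symbol starts with Ndufa, Ndufb, Ndufc, Ndufs, Ndufv, Uqcr, Cox4 to Cox8 or Atp5, or is Sdha, Sdhb, Sdhc or Sdhd. The rule found 89 of the 19938 genes with such a probe set. Where a gene had several probe sets, the one with the highest mean over the 24 arrays stood for it. Of the 89 genes, 34 encode complex I subunits, 7 complex I assembly factors, 4 complex II, 8 complex III, 19 complex IV, with its tissue isoforms and the supercomplex factor Cox7a2l, and 17 complex V. Another 4 genes that match the rule were only on probe sets that also carry a second symbol and are not among the 89.

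Oxidative phosphorylation passes electrons from NADH through complex I, or from succinate through complex II, to coenzyme Q, on to complex III and cytochrome c, and finally to oxygen at complex IV. Complexes I, III and IV pump protons across the inner mitochondrial membrane, and complex V, the ATP synthase, makes ATP from the gradient. Most subunits are encoded in the nucleus and imported, while a small hydrophobic set is made from mitochondrial DNA inside the organelle. Hepatocytes are rich in mitochondria and use this chain to meet the cost of gluconeogenesis, urea synthesis and the oxidation of fatty acids.

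The livers came from male mice of 24 weeks on a C57Bl6 background and on regular chow, with 1 array of total liver RNA per mouse. In alb-SREBP-1a∆P mice (n = 8), the albumin promoter, active in hepatocytes, drives an HA-tagged N-terminal domain of human SREBP-1a, the lipogenic transcription factor, whose sites for MAP kinases were mutated so that they cannot be phosphorylated. In alb-SREBP-1a mice (n = 8) the same promoter drives the same HA-tagged domain with these sites intact. C57Bl6 mice (n = 8) carry no transgene. Both transgenic lines keep their own Srebf1 gene, whose mouse probe set had a median of 8.64 in alb-SREBP-1a∆P, 9.38 in alb-SREBP-1a and 8.95 in C57Bl6 and is no measure of the human transgene. How many founder lines stand behind each transgene was not stated in the sources at hand. The comparisons ask how the liver transcriptome changes with SREBP-1a in excess, and what the phosphorylation sites contribute. Each genotype enters 2 of the 3 comparisons, so the comparisons share arrays and are not independent of each other. All values are log2 probe set intensities, and each difference is given with its standard error and a limma p-value adjusted over all 35556 probe sets, called at adjusted p under 0.05.

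The alb-SREBP-1a∆P arrays stood apart as a whole. Their array medians were 5.69 to 5.81, against 5.54 to 5.65 in alb-SREBP-1a and 5.55 to 5.65 in C57Bl6, and the SD over probe sets was 2.02 to 2.09, against 2.14 to 2.23 in alb-SREBP-1a and 2.18 to 2.25 in C57Bl6. Dim probe sets were higher and bright ones lower in these arrays, so that in the brightest of 10 equal groups of probe sets the median difference was -0.20 in both comparisons with alb-SREBP-1a∆P and -0.01 between alb-SREBP-1a and C57Bl6. Of the 89 genes, 62 lie in that brightest group and 11 in the next. The summed linear level of 8 hepatocyte markers was 70260 to 79211 in alb-SREBP-1a∆P and 75442 to 88300 in alb-SREBP-1a, against 84692 to 91985 in C57Bl6, and that of 10 Kupffer cell and macrophage markers 2796 to 4570 in alb-SREBP-1a∆P and 3135 to 4408 in alb-SREBP-1a, against 2059 to 2874 in C57Bl6. Their part in the results was not tested, and in a bulk sample fewer cells of a type and less RNA per cell cannot be told apart. The labels give each array a genotype and a number, and the authors state n = 8 per genotype, so the arrays were taken as separate mice. Each p-value rests on the variation among these mice alone, and the number of arrays limits their precision.

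Most of the oxidative phosphorylation genes that were called were lower in alb-SREBP-1a∆P livers. Against C57Bl6, 43 of the 89 genes were lower and 9 higher, beside 20.2% of all probe sets lower and 27.0% higher. Against alb-SREBP-1a, 50 were lower and 5 higher, beside 21.4% and 22.8% of all probe sets. Bright probe sets as a whole were called lower more often than others. In the brightest group, 33 of the 62 genes were lower than in C57Bl6, where 47.2% of all its probe sets were, and 39 of 62 were lower than in alb-SREBP-1a, where 46.1% were. The median difference of the 89 genes was -0.21 against C57Bl6 and -0.22 against alb-SREBP-1a, close to the -0.20 of all probe sets of that brightness, while the median over all probe sets was 0.11 and 0.08. In the 3 brightest groups, which hold 77 of the 89 genes, 48.9% of all probe sets were lower than in C57Bl6 and 53.4% lower than in alb-SREBP-1a, and counts by role are to be set against these shares. A median shift of the whole set is therefore not a result about these genes. What sets the genes apart from one another is their spread, which ran between -0.80 for Uqcrb and 0.60 for Atp5k against C57Bl6. In 20 of the 89 genes the 8 alb-SREBP-1a∆P values and the 8 C57Bl6 values did not overlap, beside 11.8% of all probe sets, and in 11 the alb-SREBP-1a∆P values and the alb-SREBP-1a values did not, beside 5.95%. The share without overlap among bright probe sets was not counted, so these numbers cannot be read as a trait of the genes.

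**Figure D1:**
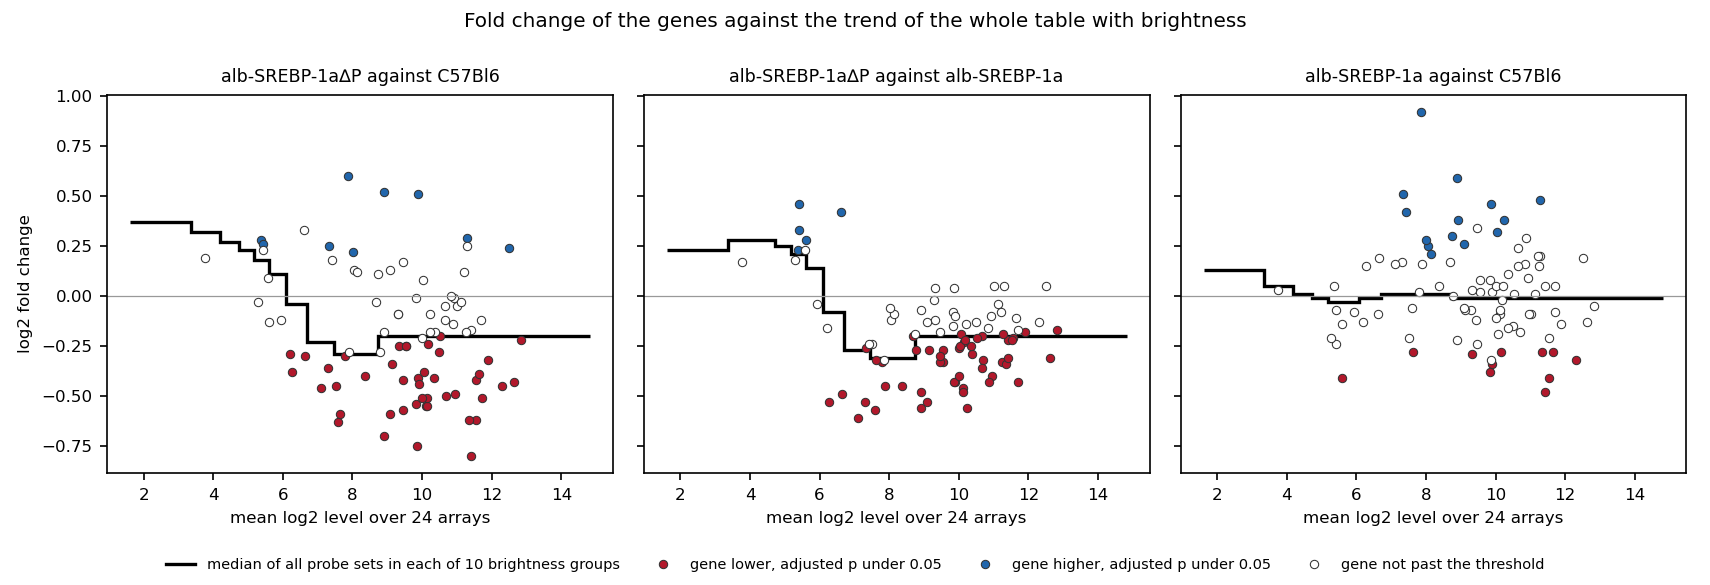
Median log2 difference (vertical axis) in 10 equal groups of probe sets ordered by mean log2 intensity (horizontal axis, dimmest to brightest) for alb-SREBP-1a∆P against C57Bl6, alb-SREBP-1a∆P livers against alb-SREBP-1a and alb-SREBP-1a against C57Bl6, with the oxidative phosphorylation genes as points. In both comparisons with alb-SREBP-1a∆P the brightest group has a median of -0.20 and the genes spread widely around it, while between alb-SREBP-1a and C57Bl6 the same group sits at -0.01.

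The calls depended on how the arrays were put on a common scale. Against C57Bl6, quantile normalization gave 14 genes higher and 31 lower, centring each array on its median 3 and 56, and cyclic loess, which takes out the trend with brightness, 20 and 22. Against alb-SREBP-1a the same 3 scalings gave 1 and 23, 0 and 72, and 5 and 14. The median over all probe sets moved with them, to -0.03, -0.05 and 0.00 against C57Bl6. Of the 43 genes lower than in C57Bl6, 21 were called lower on the deposited values and under all 3 scalings: Ndufs1, Ndufs3, Ndufs4, Ndufs7, Ndufa9, Ndufc2, Ndufaf1, Ndufaf4, Sdha, Sdhb, Uqcrb, Uqcrc2, Uqcrfs1, Uqcr11, Cox4i1, Cox6b1, Cox6c, Atp5a1, Atp5b, Atp5c1 and Atp5pb. Ndufa3, Ndufa7 and Atp5k were called higher under all of them. Of the 50 genes lower than in alb-SREBP-1a, 14 kept the call: Ndufa5, Ndufa6, Ndufab1, Ndufb6, Ndufc2, Ndufs5, Ndufaf1, Ndufaf2, Ndufaf6, Sdha, Cox4i1, Cox6b1, Cox6c and Atp5pb. None of the 5 higher genes did. No call turned to a call in the other direction under any of the 3 scalings.

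Between alb-SREBP-1a and C57Bl6 livers, fewer genes were called and they split both ways. Of the 89 genes, 14 were higher and 11 lower in alb-SREBP-1a, beside 6.77% and 3.98% of all probe sets. The median was 0.01 for the genes and 0.01 over all probe sets. In the 3 brightest groups, which hold 77 of the 89 genes, 13% of all probe sets were higher and 9.46% lower. In the brightest group these shares were 14.1% and 14.5%, beside 15.7% and 12.4% of the 89 genes. The counts are thus near those of bright probe sets. Counts by role or list in alb-SREBP-1a are to be set against these shares. The values did not overlap in 7 genes, beside 3.07% of all probe sets, and the share among bright probe sets was not counted. Called on the deposited values and under all 3 scalings were 9 of the 14 higher genes, namely Ndufa3, Ndufa6, Ndufa7, Ndufab1, Ndufb8, Ndufb10, Sdhc, Cox5b and Atp5k, and 8 of the 11 lower genes, namely Ndufs3, Ndufa4l2, Sdha, Sdhb, Uqcrfs1, Cox7a2, Atp5a1 and Atp5b. The genes held under all scalings are named here by that outcome.

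**Figure D2:**
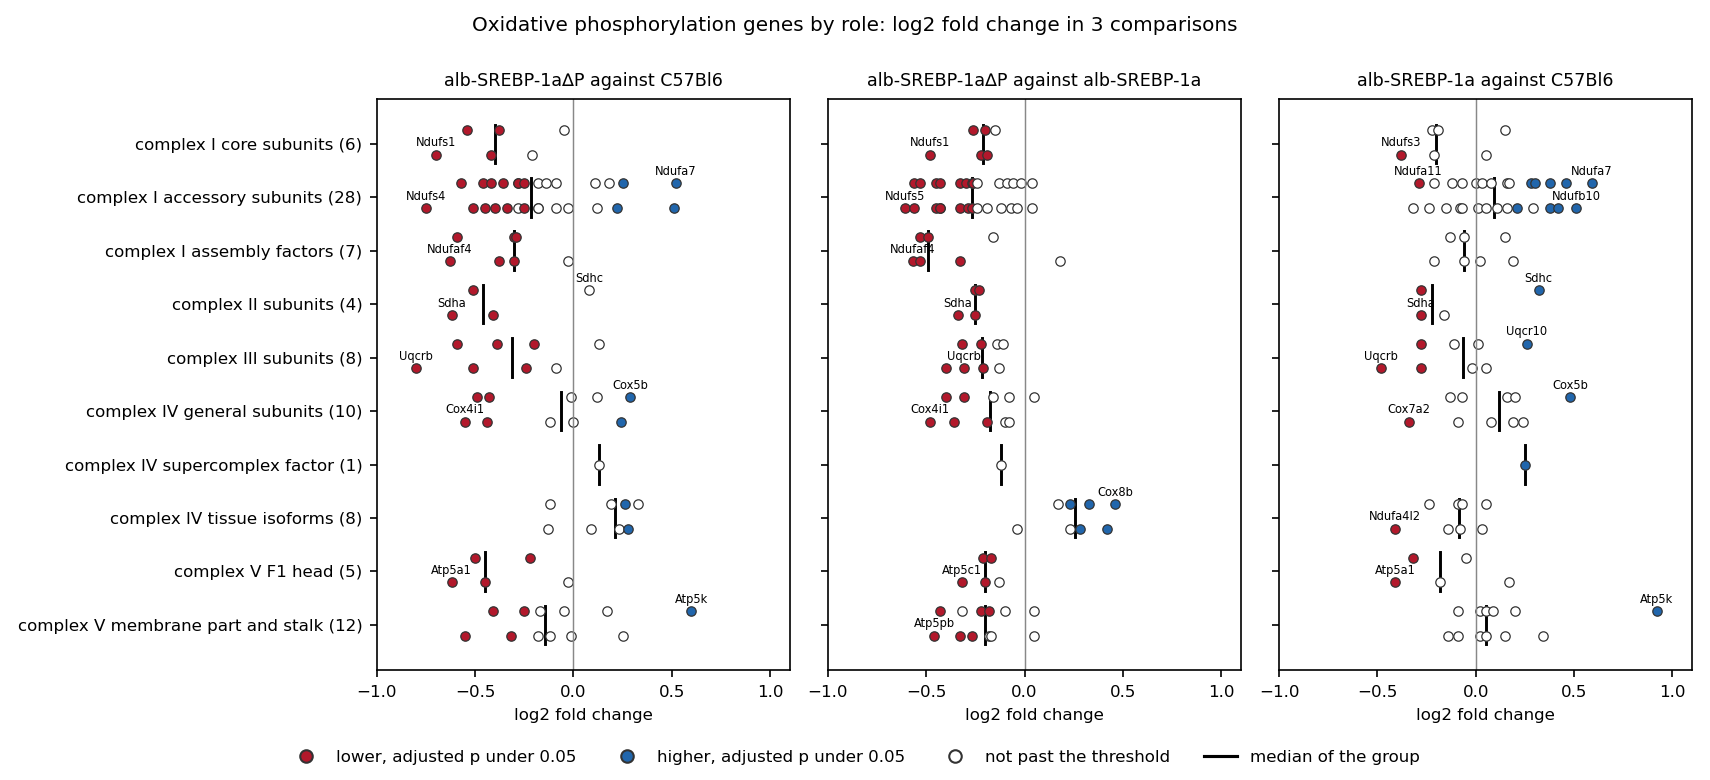
Log2 difference (horizontal axis) of each of the 89 genes, arranged by role in its complex (vertical axis), in the 3 comparisons, where filled points passed adjusted p under 0.05 and black lines are medians. In alb-SREBP-1a∆P livers most called general subunits lie below 0, with Atp5k, Ndufa7 and Ndufa3 furthest above it against C57Bl6, and in alb-SREBP-1a livers 9 called complex I accessory subunits lie above 0 and 1 below it, while both called subunits of the F1 head lie below it.

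The promoters of 4 genes are shown because these genes were lower in alb-SREBP-1a∆P livers than in each of the other genotypes and carry motifs of factors known for respiratory genes, taken in order of p. In 73 of the 89 genes a promoter was found in the RefSeq table (GRCm38.p6), as the 250 bases before and 50 after the transcription start. Genes were matched by their gene identifier, and by symbol where the identifier was missing. Each is written 5′ to 3′ on the strand of its gene with every match in capitals. Sdhb lies at chr4:140961021-140961320 on the plus strand, Sdha at chr13:74350191-74350490, Ndufs4 at chr13:114388045-114388344 and Cox6b1 at chr7:30626065-30626364, all 3 on the minus strand. The capitals mark an ETS core (CCGGAAG, the element that GABP binds) in Sdhb and, read on the other strand, in Cox6b1, NRF1 motifs (GCGCNTGCG) on the other strand in Sdha, and a YY1 motif (AAGATGGCG) in Ndufs4.
Sdhb: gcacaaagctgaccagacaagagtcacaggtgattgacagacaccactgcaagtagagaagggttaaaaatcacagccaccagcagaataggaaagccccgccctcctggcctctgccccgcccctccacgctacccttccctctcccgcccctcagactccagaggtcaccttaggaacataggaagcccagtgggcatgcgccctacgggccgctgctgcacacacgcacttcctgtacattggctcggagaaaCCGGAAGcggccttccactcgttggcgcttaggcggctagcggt
Sdha: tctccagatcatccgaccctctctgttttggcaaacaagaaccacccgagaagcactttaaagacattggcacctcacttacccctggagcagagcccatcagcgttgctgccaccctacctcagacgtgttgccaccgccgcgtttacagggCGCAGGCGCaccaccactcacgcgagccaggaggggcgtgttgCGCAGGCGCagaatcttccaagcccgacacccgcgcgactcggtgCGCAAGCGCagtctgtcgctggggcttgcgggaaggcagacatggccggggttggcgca
Ndufs4: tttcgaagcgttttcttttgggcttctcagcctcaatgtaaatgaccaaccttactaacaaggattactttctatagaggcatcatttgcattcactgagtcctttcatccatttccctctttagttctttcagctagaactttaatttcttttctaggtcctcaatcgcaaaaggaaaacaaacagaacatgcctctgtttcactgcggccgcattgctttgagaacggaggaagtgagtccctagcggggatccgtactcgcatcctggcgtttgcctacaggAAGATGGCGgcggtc
Cox6b1: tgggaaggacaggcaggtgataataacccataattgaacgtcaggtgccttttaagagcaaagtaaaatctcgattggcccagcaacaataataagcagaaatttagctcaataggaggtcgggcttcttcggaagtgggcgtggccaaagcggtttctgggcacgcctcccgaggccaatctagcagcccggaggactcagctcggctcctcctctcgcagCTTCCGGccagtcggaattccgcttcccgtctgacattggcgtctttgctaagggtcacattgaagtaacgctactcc
The Sdha promoter holds 3 matches to the NRF1 motif and each of the others 1 match.

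Both strands of 27025 promoters, 1 per gene at the first start the table lists, were searched for 6 motifs. For 5 of the 73 genes more than 1 start was listed, and their other starts were not searched. The NRF1 motif was in 23 of the 73 promoters (31.5%), against 6.59% of all promoters, and the ETS core in 17 (23.3%), against 9.12%. The YY1 motif was in 6 (8.22%), against 1.49%, the ERR motif (TCAAGGTCA) in 2 (2.74%), against 0.407%, and the E-box (CACGTG) in 6 (8.22%), against 7.24% of all. A SREBP motif of the LDL receptor type (TCACNCCAC) was in 0 of the 73 windows and in 1.22% of all. At least 1 of the 6 motifs was in 42 of the 73 promoters (57.5%) and in 22.3% of all. Among the 35 genes lower in alb-SREBP-1a∆P livers than in each of the other genotypes, 26 had a promoter in the table and 18 of these (69.2%) held a motif. A match describes the letters in the window and does not show that a factor binds there.

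Complex II, succinate dehydrogenase, is both a citrate cycle enzyme and an entry point of electrons, and all of its subunits are nuclear. Sdha, the flavoprotein that oxidizes succinate, had a lowest, median and highest value of 10.83, 11.00 and 11.27 in alb-SREBP-1a∆P, 11.22, 11.38 and 11.50 in alb-SREBP-1a, and 11.38, 11.71 and 11.82 in C57Bl6. No alb-SREBP-1a∆P liver reached the lowest C57Bl6 liver, while the alb-SREBP-1a values overlapped both. Sdha was 1.54-fold lower in alb-SREBP-1a∆P livers than in C57Bl6 (log2 difference -0.62 ± 0.09, adjusted p = 2.68e-05), lower than in alb-SREBP-1a (-0.34 ± 0.08, adjusted p = 0.00307), and lower in alb-SREBP-1a than in C57Bl6 (-0.28 ± 0.07, adjusted p = 0.0174). Sdhb, the iron-sulfur subunit that hands the electrons on, had 9.74, 9.91 and 10.11 in alb-SREBP-1a∆P, 10.05, 10.13 and 10.24 in alb-SREBP-1a, and 10.29, 10.38 and 10.57 in C57Bl6. Neither transgenic line overlapped C57Bl6 for this gene. The differences of Sdhb were -0.51 ± 0.07 (adjusted p = 2.19e-05) for alb-SREBP-1a∆P against C57Bl6, -0.23 ± 0.06 (adjusted p = 0.00928) for alb-SREBP-1a∆P livers against alb-SREBP-1a and -0.28 ± 0.06 (adjusted p = 0.00371) for alb-SREBP-1a against C57Bl6.

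Of the membrane anchors of complex II, Sdhc rose in alb-SREBP-1a, where Sdha and Sdhb fell. Sdhc had 9.78, 9.98 and 10.16 in alb-SREBP-1a∆P, 10.11, 10.23 and 10.43 in alb-SREBP-1a, and 9.66, 9.88 and 10.19 in C57Bl6. It was higher in alb-SREBP-1a than in C57Bl6 (0.32 ± 0.08, adjusted p = 0.0144), lower in alb-SREBP-1a∆P livers than in alb-SREBP-1a (-0.25 ± 0.07, adjusted p = 0.012), and not called between alb-SREBP-1a∆P and C57Bl6 (0.08 ± 0.08, adjusted p = 0.466). The alb-SREBP-1a values of Sdhc overlapped those of the other genotypes only at their edges. Sdhd had 9.90, 10.11 and 10.32 in alb-SREBP-1a∆P, 10.12, 10.35 and 10.67 in alb-SREBP-1a, and 10.32, 10.51 and 10.78 in C57Bl6. Its level was lower in alb-SREBP-1a∆P livers than in C57Bl6 (-0.41 ± 0.09, adjusted p = 0.00131) and than in alb-SREBP-1a (-0.25 ± 0.10, adjusted p = 0.0424), while -0.16 ± 0.10 between alb-SREBP-1a and C57Bl6 was not called. Of the complex II genes, only Sdha and Sdhb kept a call against C57Bl6 in both transgenic lines under every scaling. Against alb-SREBP-1a, all 4 were called lower in alb-SREBP-1a∆P livers on the deposited values. That number became 1 under quantile normalization and 1 under cyclic loess, and only Sdha kept the call under every scaling. All 4 lie in the brightest group, where 46.1% of all probe sets were lower in that comparison.

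**Figure D3:**
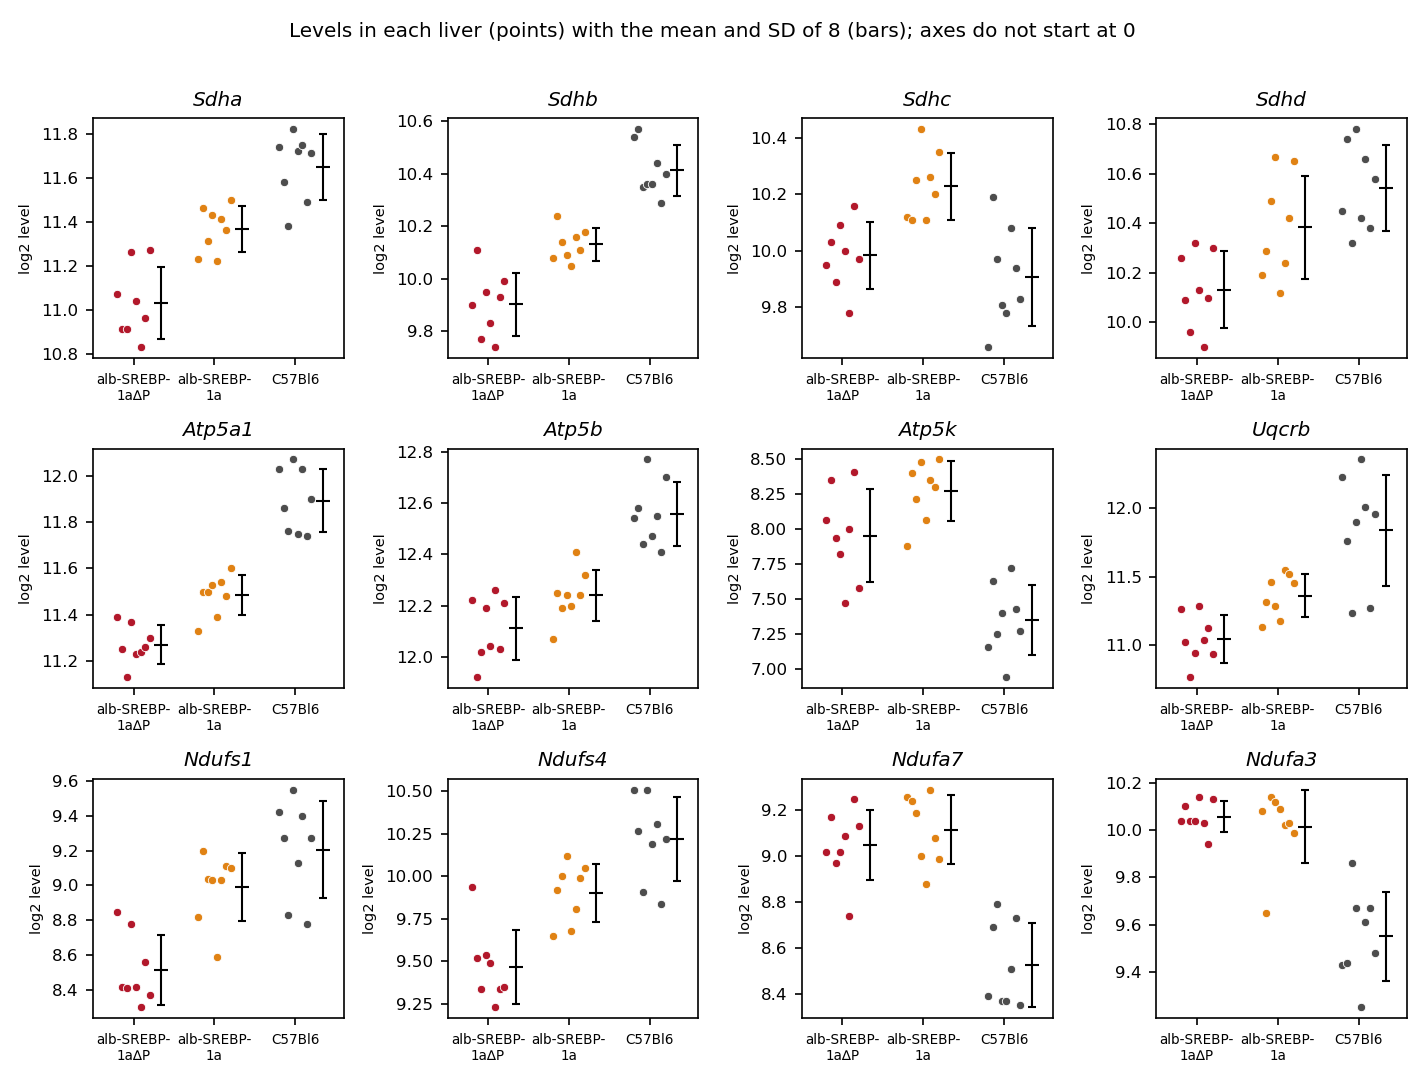
Log2 intensity (vertical axis) of single livers as points, with the mean and SD of each genotype, in the order alb-SREBP-1a∆P, alb-SREBP-1a, C57Bl6, for genes that the text describes by their values. For Sdhb, no value of either transgenic line reaches the lowest C57Bl6 value of 10.29, and for Atp5k no alb-SREBP-1a value, at 7.88 or more, falls within the C57Bl6 range of 6.94 to 7.72.

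The core subunits of complex I carry the flavin and iron-sulfur clusters that take electrons from NADH. Of the 6 measured, 4 were lower in alb-SREBP-1a∆P livers than in C57Bl6, 5 were lower than in alb-SREBP-1a, and 1 was lower in alb-SREBP-1a than in C57Bl6. All 6 lie in the brightest group, where 47.2% and 46.1% of all probe sets were lower in the alb-SREBP-1a∆P comparisons, and the 5 became 1 under quantile normalization and 0 under cyclic loess, while the 4 became 3 under each. Ndufs1, the largest of the nuclear core subunits, had 8.30, 8.42 and 8.85 in alb-SREBP-1a∆P, 8.59, 9.04 and 9.20 in alb-SREBP-1a, and 8.78, 9.27 and 9.55 in C57Bl6. Most alb-SREBP-1a∆P livers lay below every C57Bl6 liver, with a narrow overlap at the top. Ndufs1 was 1.62-fold lower in alb-SREBP-1a∆P livers than in C57Bl6 (-0.70 ± 0.12, adjusted p = 0.000199) and 1.39-fold lower than in alb-SREBP-1a (-0.48 ± 0.10, adjusted p = 0.00184), and -0.22 ± 0.12 between alb-SREBP-1a and C57Bl6 was not called. Ndufs3, a core subunit without a redox centre of its own, had 9.45, 9.59 and 9.84 in alb-SREBP-1a∆P, 9.63, 9.77 and 9.91 in alb-SREBP-1a, and 9.98, 10.19 and 10.28 in C57Bl6.

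Ndufs3 differed from C57Bl6 in both lines without overlap, by -0.54 ± 0.08 in alb-SREBP-1a∆P (adjusted p = 3.31e-05) and by -0.38 ± 0.07 in alb-SREBP-1a (adjusted p = 0.00145), and no difference was called between the lines (-0.15 ± 0.07, adjusted p = 0.0914). Ndufs7, which holds the last iron-sulfur cluster before coenzyme Q, also did not overlap between alb-SREBP-1a∆P (11.07 to 11.52) and C57Bl6 (11.60 to 11.91), with a difference of -0.42 ± 0.07 (adjusted p = 0.000207). Ndufs8, another iron-sulfur subunit, was lower in alb-SREBP-1a∆P livers than in C57Bl6 (-0.38 ± 0.09, adjusted p = 0.00334), and its difference from alb-SREBP-1a of -0.19 ± 0.07 (adjusted p = 0.0309) became 0.03 under cyclic loess. Ndufv1 and Ndufv2, which form the site that accepts electrons from NADH, were not called against C57Bl6 in either line. In alb-SREBP-1a∆P livers against alb-SREBP-1a both were lower, Ndufv1 with -0.26 ± 0.08 (adjusted p = 0.0178) and Ndufv2 with -0.20 ± 0.07 (adjusted p = 0.0325).

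The 28 accessory subunits of complex I, which surround and stabilize the core, went in both directions. Against C57Bl6, 12 were lower and 4 higher in alb-SREBP-1a∆P, and 1 was lower and 9 higher in alb-SREBP-1a. Their median was -0.22 in the alb-SREBP-1a∆P comparison on the deposited values and 0.01 under cyclic loess, and 0.09 in the alb-SREBP-1a comparison. Under cyclic loess 3 were lower and 7 higher in alb-SREBP-1a∆P. The lowest was Ndufs4, whose loss in mice destabilizes the complex. It had 9.23, 9.42 and 9.94 in alb-SREBP-1a∆P, 9.65, 9.95 and 10.12 in alb-SREBP-1a, and 9.84, 10.25 and 10.51 in C57Bl6. Ndufs4 was 1.68-fold lower in alb-SREBP-1a∆P livers than in C57Bl6 (-0.75 ± 0.12, adjusted p = 7.23e-05) and 1.35-fold lower than in alb-SREBP-1a (-0.43 ± 0.10, adjusted p = 0.00333). A single alb-SREBP-1a∆P liver, replicate 1 at 9.94, made the groups overlap, and the next value in that group was 9.54.

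Other accessory subunits moved the opposite way against C57Bl6. Ndufa7 had 8.74, 9.06 and 9.25 in alb-SREBP-1a∆P, 8.88, 9.14 and 9.29 in alb-SREBP-1a, and 8.35, 8.45 and 8.79 in C57Bl6. It was 1.51-fold higher in alb-SREBP-1a (0.59 ± 0.09, adjusted p = 0.000339, no overlap) and 1.44-fold higher in alb-SREBP-1a∆P (0.52 ± 0.09, adjusted p = 0.000203). Ndufa3 had 9.94, 10.04 and 10.14 in alb-SREBP-1a∆P, 9.65, 10.06 and 10.14 in alb-SREBP-1a, and 9.25, 9.55 and 9.86 in C57Bl6. The rise of Ndufa3 was 0.51 ± 0.08 in alb-SREBP-1a∆P (adjusted p = 9.32e-05, no overlap) and 0.46 ± 0.09 in alb-SREBP-1a (adjusted p = 0.00264). Both are small subunits, and for neither was a difference between the lines called. Ndufb10, a subunit of the membrane arm, had 7.08, 7.29 and 7.64 in alb-SREBP-1a∆P, 7.44, 7.57 and 7.82 in alb-SREBP-1a, and 6.91, 7.08 and 7.29 in C57Bl6. It was higher than in C57Bl6 by 0.25 ± 0.10 in alb-SREBP-1a∆P (adjusted p = 0.0411) and by 0.51 ± 0.08 in alb-SREBP-1a (adjusted p = 0.000455, no overlap).

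For several accessory subunits the transgenic lines did not overlap each other. Ndufa6 had 9.83, 9.97 and 10.12 in alb-SREBP-1a∆P, 10.31, 10.58 and 10.68 in alb-SREBP-1a, and 9.77, 10.22 and 10.38 in C57Bl6. The alb-SREBP-1a∆P livers lay wholly below the alb-SREBP-1a livers (-0.56 ± 0.07, adjusted p = 0.00011) and within the C57Bl6 range. Ndufab1, the mitochondrial acyl carrier protein, which also serves fatty acid synthesis in the organelle, had 8.30, 8.67 and 8.88 in alb-SREBP-1a∆P, 9.07, 9.22 and 9.41 in alb-SREBP-1a, and 8.60, 8.85 and 9.08 in C57Bl6. Its level was lower in alb-SREBP-1a∆P livers than in alb-SREBP-1a (-0.56 ± 0.09, adjusted p = 0.000272) and higher in alb-SREBP-1a than in C57Bl6 (0.38 ± 0.08, adjusted p = 0.00567), as Ndufa6 was (0.38 ± 0.09, adjusted p = 0.0142). Against C57Bl6, alb-SREBP-1a∆P differed by -0.18 for each of them, which was not called. Ndufa5 did not overlap between the lines either (-0.53 ± 0.10, adjusted p = 0.000803). Ndufs5 was dimmer and spread more widely, with 6.20, 6.72 and 7.21 in alb-SREBP-1a∆P, 7.09, 7.41 and 7.55 in alb-SREBP-1a, and 6.98, 7.17 and 7.55 in C57Bl6, and was 1.53-fold lower in alb-SREBP-1a∆P livers than in alb-SREBP-1a (-0.61 ± 0.15, adjusted p = 0.00359). A probe set shared by Ndufs5 and its pseudogene Ndufs5-ps gave -0.54 for the same comparison.

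The complex I assembly factors help to build the enzyme and are not part of it. Against C57Bl6, 6 of 7 were lower in alb-SREBP-1a∆P and 0 of 7 were called by limma in alb-SREBP-1a, where 2 had an unadjusted p under 0.05 and the methods' t-test called 1. The 6 became 4 under quantile normalization and 2 under cyclic loess, beside 20.2% of all probe sets lower on the deposited values. Ndufaf4 had 6.56, 7.23 and 7.59 in alb-SREBP-1a∆P, 7.55, 7.78 and 7.87 in alb-SREBP-1a, and 7.65, 7.85 and 7.97 in C57Bl6. It was 1.55-fold lower in alb-SREBP-1a∆P livers than in C57Bl6 (-0.63 ± 0.13, adjusted p = 0.000971, no overlap) and 1.49-fold lower than in alb-SREBP-1a (-0.57 ± 0.13, adjusted p = 0.0026). Ndufaf1, an early acting factor for the membrane arm, had 8.28, 8.68 and 9.13 in alb-SREBP-1a∆P, 9.00, 9.26 and 9.51 in alb-SREBP-1a, and 8.85, 9.38 and 9.69 in C57Bl6, and differed in alb-SREBP-1a∆P by -0.59 ± 0.14 against C57Bl6 (adjusted p = 0.0026) and by -0.53 ± 0.11 against alb-SREBP-1a (adjusted p = 0.00187). Ndufaf2, at 5.98 to 6.73 in alb-SREBP-1a∆P and 6.79 to 6.98 in alb-SREBP-1a, did not overlap between the lines.

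Complex III passes electrons from coenzyme Q to cytochrome c. Of its 8 nuclear subunits in the set, 6 were lower in alb-SREBP-1a∆P livers than in C57Bl6 and 5 lower than in alb-SREBP-1a. Against C57Bl6, 3 were lower and 1 higher in alb-SREBP-1a. The 6 became 4 under quantile normalization and under cyclic loess, and the 5 became 2 and 0. Uqcrb, a small subunit near the coenzyme Q site, had the lowest difference of all 89 genes between alb-SREBP-1a∆P and C57Bl6. It had 10.76, 11.03 and 11.28 in alb-SREBP-1a∆P, 11.13, 11.38 and 11.55 in alb-SREBP-1a, and 11.23, 11.93 and 12.36 in C57Bl6, where the spread was wide. The lowest C57Bl6 values were replicates 3 and 7, at 11.23 and 11.27, with the next at 11.76. The same arrays were the lowest C57Bl6 values of Ndufs1, Ndufs4, Ndufaf1 and Atp5pb and the highest of Atp5g2. No alternative tried left them out. Uqcrb was 1.74-fold lower in alb-SREBP-1a∆P livers than in C57Bl6 (-0.80 ± 0.15, adjusted p = 0.000441) and 1.4-fold lower in alb-SREBP-1a than in C57Bl6 (-0.48 ± 0.15, adjusted p = 0.044). Uqcrfs1, the Rieske iron-sulfur protein, had 7.05, 7.26 and 7.66 in alb-SREBP-1a∆P, 7.53, 7.65 and 7.72 in alb-SREBP-1a, and 7.60, 7.94 and 8.14 in C57Bl6. Its level was lower in alb-SREBP-1a∆P livers than in C57Bl6 (-0.59 ± 0.11, adjusted p = 0.000277) and than in alb-SREBP-1a (-0.32 ± 0.09, adjusted p = 0.0102), and in alb-SREBP-1a than in C57Bl6 (-0.28 ± 0.08, adjusted p = 0.0281). Uqcrc2, a core protein, had 11.32 to 11.63 in alb-SREBP-1a∆P and 11.74 to 12.07 in C57Bl6 with no overlap (-0.39 ± 0.07, adjusted p = 0.000319). The 1 gene of the complex higher in alb-SREBP-1a than in C57Bl6 was Uqcr10 (0.26 ± 0.07, adjusted p = 0.0276).

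**Figure D4:**
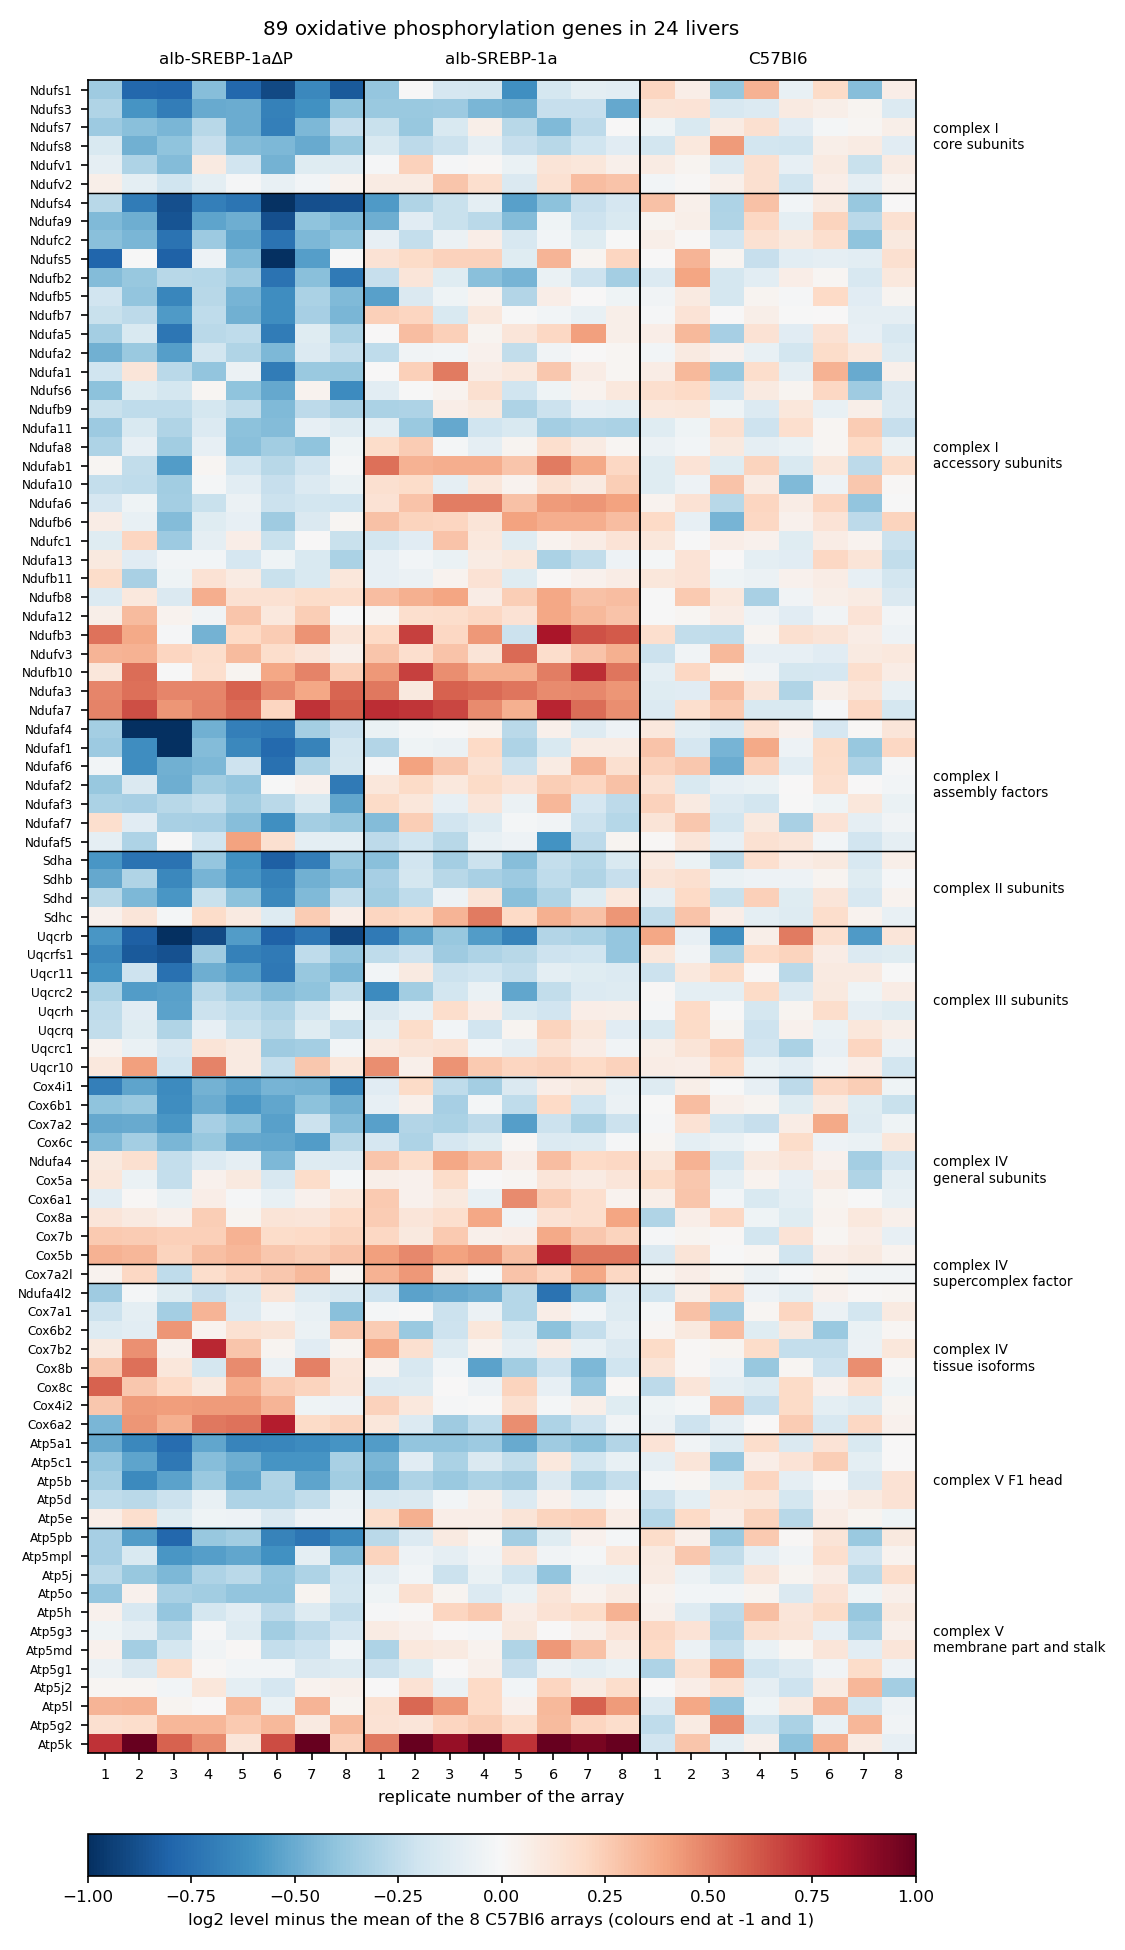
Log2 deviation of each gene (grouped by role, 1 line each) from its mean over the C57Bl6 arrays in each of the 24 arrays (columns, alb-SREBP-1a∆P, alb-SREBP-1a, then C57Bl6), by colour. Genes of both colours stand side by side within one complex, such as Sdha and Sdhb against Sdhc in the alb-SREBP-1a arrays.

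Complex IV reduces oxygen to water. Its 10 general nuclear subunits did not move as one: against C57Bl6, 4 were lower and 2 higher in alb-SREBP-1a∆P, and 1 was lower and 1 higher in alb-SREBP-1a. Their median in alb-SREBP-1a∆P against C57Bl6 was -0.06, and it changed sign to 0.06 under quantile normalization and 0.13 under cyclic loess. Cox4i1, the largest nuclear subunit, which is needed early in assembly, had 9.66, 9.81 and 9.88 in alb-SREBP-1a∆P, 10.00, 10.25 and 10.53 in alb-SREBP-1a, and 10.08, 10.32 and 10.59 in C57Bl6. The alb-SREBP-1a∆P values lay below all 16 others, by -0.55 ± 0.08 against C57Bl6 (adjusted p = 3.2e-05) and -0.48 ± 0.08 against alb-SREBP-1a (adjusted p = 0.000366). Cox6b1, which faces the intermembrane space, showed the same separation, with 10.52, 10.66 and 10.77 in alb-SREBP-1a∆P, 10.81, 11.07 and 11.34 in alb-SREBP-1a, and 10.92, 11.16 and 11.45 in C57Bl6. Its differences were -0.49 ± 0.08 against C57Bl6 (adjusted p = 8.69e-05) and -0.40 ± 0.08 against alb-SREBP-1a (adjusted p = 0.00105). Cox6c was lower against both as well, and did not overlap C57Bl6 (-0.43 ± 0.07, adjusted p = 5.76e-05).

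Cox5b, a zinc-binding subunit of the same enzyme, went the other way. It had 11.24, 11.32 and 11.37 in alb-SREBP-1a∆P, 11.32, 11.48 and 11.77 in alb-SREBP-1a, and 10.82, 11.05 and 11.15 in C57Bl6. Both lines lay wholly above C57Bl6, by 0.29 ± 0.06 in alb-SREBP-1a∆P (adjusted p = 0.00125) and 0.48 ± 0.07 in alb-SREBP-1a (adjusted p = 0.00034). Cox7b was also higher in alb-SREBP-1a∆P, at 12.53 to 12.70 against 12.17 to 12.49 in C57Bl6 (0.24 ± 0.06, adjusted p = 0.00343). Cox7a2, the form of its subunit that liver uses, was lower in alb-SREBP-1a∆P (-0.44 ± 0.09, adjusted p = 0.000794) and in alb-SREBP-1a (-0.34 ± 0.09, adjusted p = 0.0193) than in C57Bl6. Its relative Cox7a2l, the supercomplex factor, was higher in alb-SREBP-1a than in C57Bl6 (0.25 ± 0.07, adjusted p = 0.021). The dimmer probe set of Cox7a2l was not called there (0.23, adjusted p = 0.25), and the call of the brighter one was lost under quantile normalization. Cox6a1 and Cox8a, the general forms of their subunits, were not called in any comparison, and Cox6a1 was called higher in alb-SREBP-1a∆P livers than in C57Bl6 under cyclic loess (0.19, adjusted p = 0.048).

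The 8 tissue isoforms of complex IV subunits are those known from muscle, lung or testis, with Ndufa4l2, a form of the complex IV subunit Ndufa4 that responds to low oxygen. They were dim, with group medians between 3.67 and 6.93, and no detection call was used. Of the 8, 5 were higher in alb-SREBP-1a∆P livers than in alb-SREBP-1a, and none of these calls held under all 3 scalings. Of these 5, 4 lie in the brightness group with means of 5.18 to 5.61. There, 34% of all probe sets were higher in this comparison, with a median of 0.21. The median of the 8 isoforms against alb-SREBP-1a was 0.26, near that of such dim probe sets as a whole. A rise of the 8 together is therefore not a result about these genes. Their median stayed above 0 at 0.07 to 0.12 under the scalings, while against C57Bl6 it was 0.21 and -0.01 under quantile normalization. Cox8b, a striated muscle isoform, had 5.24, 5.62 and 5.97 in alb-SREBP-1a∆P and 4.88, 5.22 and 5.45 in alb-SREBP-1a (0.46 ± 0.12, adjusted p = 0.00548). Cox6a2, another muscle isoform, differed by 0.42 ± 0.16 (adjusted p = 0.0378), and its alb-SREBP-1a∆P values reached from 6.08 to 7.32. The summed linear level of 6 striated muscle markers was 281 to 383 in alb-SREBP-1a∆P, 233 to 306 in alb-SREBP-1a and 271 to 335 in C57Bl6, and that of 4 adipocyte markers 108 to 171 in alb-SREBP-1a∆P, 73 to 112 in alb-SREBP-1a and 88 to 108 in C57Bl6. None of these markers lies in the 3 brightest groups. Called higher than in alb-SREBP-1a were 4 of the muscle and 3 of the adipocyte markers. These counts became 1 and 0 under quantile normalization and under cyclic loess, and 1 and 1 under centring. The part of these markers in the differences was not tested. Ndufa4l2 was lower in alb-SREBP-1a, at 5.04 to 5.64, than in C57Bl6, at 5.58 to 5.99 (-0.41 ± 0.09, adjusted p = 0.00435), and this call held under the 3 scalings. Without alb-SREBP-1a∆P replicate 4, 3 genes of the whole set were higher in alb-SREBP-1a∆P livers than in alb-SREBP-1a in place of 5.

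Complex V has a soluble F1 head, which makes ATP, on a membrane part with a rotating ring and a peripheral stalk. Of the 5 head subunits, 4 were lower in alb-SREBP-1a∆P livers than in C57Bl6 and 4 lower than in alb-SREBP-1a, and 2 were lower in alb-SREBP-1a than in C57Bl6. Against C57Bl6, 3 were lower under quantile normalization and 3 under cyclic loess, but against alb-SREBP-1a 0 of 5 were called lower under either, and 46.1% of all probe sets in the brightest group were lower there. Atp5a1, the alpha subunit, had 11.13, 11.26 and 11.39 in alb-SREBP-1a∆P, 11.33, 11.50 and 11.60 in alb-SREBP-1a, and 11.74, 11.88 and 12.07 in C57Bl6. No liver of either line reached the C57Bl6 range. It was 1.53-fold lower in alb-SREBP-1a∆P (-0.62 ± 0.07, adjusted p = 4.49e-06), the smallest p of the 89 genes in that comparison, and 1.33-fold lower in alb-SREBP-1a (-0.41 ± 0.07, adjusted p = 0.000841), and the lines differed by -0.21 ± 0.06 (adjusted p = 0.0118). Atp5b, the catalytic beta subunit, had 11.92, 12.11 and 12.26 in alb-SREBP-1a∆P, 12.07, 12.24 and 12.41 in alb-SREBP-1a, and 12.41, 12.54 and 12.77 in C57Bl6. It was lower than in C57Bl6 in alb-SREBP-1a∆P (-0.45 ± 0.07, adjusted p = 0.000145) and in alb-SREBP-1a (-0.32 ± 0.07, adjusted p = 0.00493), with no call between them (-0.13 ± 0.07, adjusted p = 0.135). Atp5c1, the gamma subunit that forms the central shaft, was lower in alb-SREBP-1a∆P livers than in C57Bl6 (-0.50 ± 0.09, adjusted p = 0.000239) and than in alb-SREBP-1a (-0.32 ± 0.08, adjusted p = 0.00554).

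The membrane part and stalk of complex V held the gene with the largest rise. Of its 12 genes, 4 were lower and 1 higher in alb-SREBP-1a∆P livers than in C57Bl6, and 1 lower and 3 higher under cyclic loess. Atp5k, subunit e, which helps the enzyme to form dimers, had 7.47, 7.97 and 8.41 in alb-SREBP-1a∆P, 7.88, 8.33 and 8.50 in alb-SREBP-1a, and 6.94, 7.34 and 7.72 in C57Bl6. It was 1.9-fold higher in alb-SREBP-1a than in C57Bl6 (0.92 ± 0.11, adjusted p = 6.39e-05, no overlap) and 1.52-fold higher in alb-SREBP-1a∆P (0.60 ± 0.14, adjusted p = 0.00238), the largest rise of the 89 genes in both. No difference was called between the lines (-0.32 ± 0.14, adjusted p = 0.0632). Atp5l, subunit g, its partner at the dimer interface, differed by 0.34 ± 0.11 between alb-SREBP-1a and C57Bl6, which missed the threshold (adjusted p = 0.0616), while 1 of its 5 dimmer probe sets passed (0.38, adjusted p = 0.0273). Atp5pb, subunit b of the stalk, had 9.55, 9.74 and 10.01 in alb-SREBP-1a∆P, 10.00, 10.27 and 10.43 in alb-SREBP-1a, and 9.97, 10.42 and 10.60 in C57Bl6, and differed in alb-SREBP-1a∆P by -0.55 ± 0.11 against C57Bl6 (adjusted p = 0.00056) and by -0.46 ± 0.09 against alb-SREBP-1a (adjusted p = 0.00099). Atp5g1, Atp5g2 and Atp5g3 encode the same mature ring protein, and on their brightest probe sets none was called against C57Bl6 in either line. The other 2 probe sets of Atp5g2 were called higher in alb-SREBP-1a∆P livers than in C57Bl6, at 0.29 (adjusted p = 0.0145) and 0.29 (adjusted p = 0.0244), where the brightest had 0.25 (adjusted p = 0.0612). Atp5g3 alone was called between the lines, at 11.10 to 11.44 in alb-SREBP-1a∆P and 11.44 to 11.59 in alb-SREBP-1a (-0.22 ± 0.06, adjusted p = 0.0127).

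Across single livers, the median deviation of the 89 genes from the C57Bl6 mean was -0.32 to -0.14 in alb-SREBP-1a∆P, -0.09 to 0.06 in alb-SREBP-1a and -0.07 to 0.09 in C57Bl6. Over all probe sets of the brightest group it was -0.26 to -0.14 in alb-SREBP-1a∆P, -0.10 to 0.08 in alb-SREBP-1a and -0.09 to 0.04 in C57Bl6. The complex I core genes reached -0.57 to -0.23 in alb-SREBP-1a∆P and -0.25 to -0.04 in alb-SREBP-1a, against -0.10 to 0.16 in C57Bl6. The accessory genes reached -0.35 to -0.11 in alb-SREBP-1a∆P and 0.01 to 0.16 in alb-SREBP-1a, against -0.08 to 0.11 in C57Bl6. In every alb-SREBP-1a array the median of the core genes thus lay below 0 and that of the accessory genes above it. These arrays are all set against the same C57Bl6 mean, and single genes went both ways. Between alb-SREBP-1a and C57Bl6, 4 of 6 core genes had a difference below 0 and 1 was called lower. Of the 28 accessory genes, 18 were above 0, with 9 called higher and 1 lower.

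**Figure D5:**
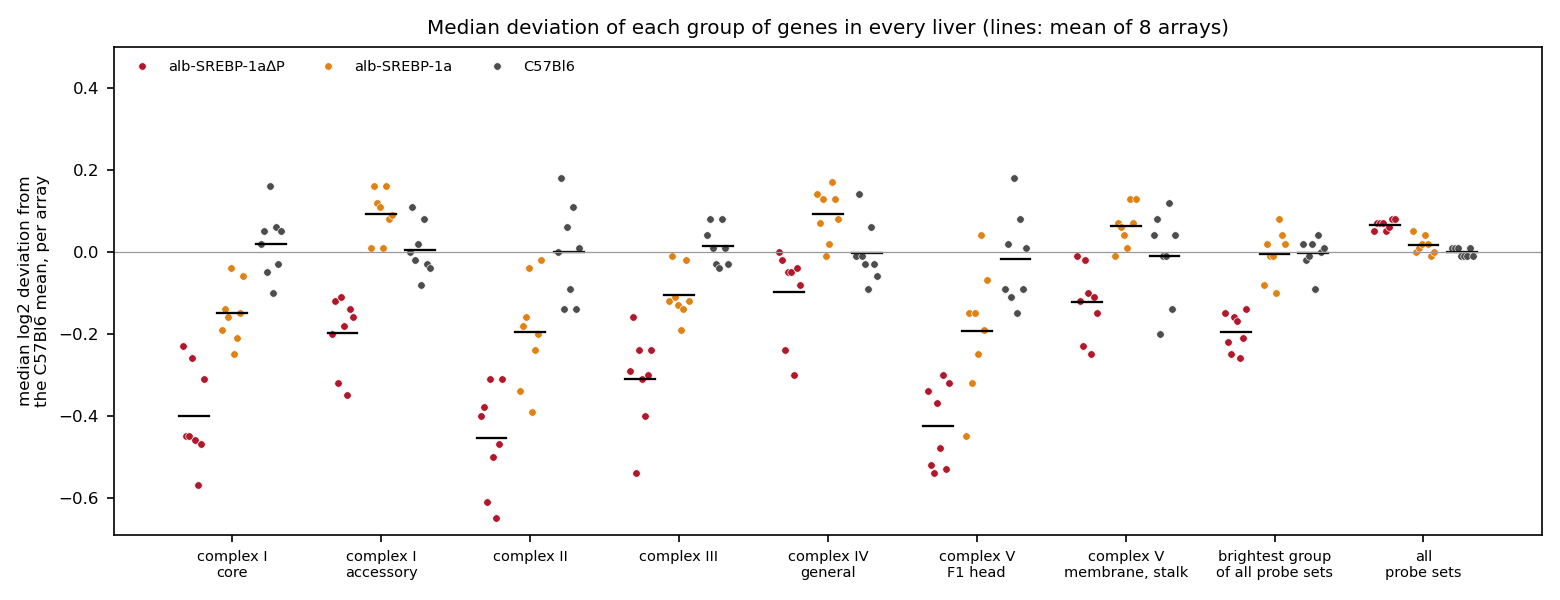
Median log2 deviation from the C57Bl6 mean (vertical axis) over the genes of a role in each liver, 1 point per array, in the order alb-SREBP-1a∆P, alb-SREBP-1a, C57Bl6, with lines at the mean of 8 arrays and the brightest group and all probe sets for reference. The alb-SREBP-1a∆P livers lie between -0.57 and -0.23 for the complex I core genes, and between -0.26 and -0.14 for the brightest group of probe sets.

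By pattern of calls over the 3 comparisons, 30 of the 89 genes were lower in alb-SREBP-1a∆P livers than in each of the other genotypes with no call between alb-SREBP-1a and C57Bl6, and another 5 were lower in all 3 comparisons. A further 5 were lower than C57Bl6 in both lines with no call between the lines, and 6 were higher than C57Bl6 in both lines. Higher in alb-SREBP-1a than in C57Bl6 and lower again in alb-SREBP-1a∆P livers than in alb-SREBP-1a, with no call between alb-SREBP-1a∆P and C57Bl6, were 3 genes. Of the others, 10 were lower only in alb-SREBP-1a∆P livers against alb-SREBP-1a and 5 higher only in alb-SREBP-1a against C57Bl6. In all, 73 genes were called in at least 1 comparison and 16 in none. The share of all probe sets with each pattern was not counted. Both comparisons with alb-SREBP-1a∆P use the same arrays of that line. The 3 brightest groups hold 77 of the 89 genes. There, 48.9% of all probe sets were called lower for that line against C57Bl6, and 53.4% against alb-SREBP-1a. Under cyclic loess, that line's lower calls went from 43 to 22 genes against C57Bl6 and from 50 to 14 against alb-SREBP-1a. The number lower in both therefore cannot be read as a trait of these genes.

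Genes around the chain were read from lists outside the 89, and their counts in alb-SREBP-1a∆P stand against the same shares of bright probe sets. Of the mitochondrially encoded subunits, 2 had a probe set with 1 symbol. ND3, a complex I core subunit, had 13.15, 13.39 and 13.63 in alb-SREBP-1a∆P, 12.81, 13.21 and 13.50 in alb-SREBP-1a, and 12.37, 12.72 and 13.24 in C57Bl6, and was higher than in C57Bl6 in alb-SREBP-1a∆P (0.62 ± 0.11, adjusted p = 0.000262) and in alb-SREBP-1a (0.45 ± 0.12, adjusted p = 0.0262). COX2, the mitochondrial complex IV subunit, was not called on the deposited values. Under quantile normalization and under cyclic loess it was called higher in alb-SREBP-1a∆P livers than in C57Bl6, as ND3 was. Of 15 regulators of mitochondrial biogenesis, 12 were lower in alb-SREBP-1a∆P livers than in C57Bl6 and 10 lower than in alb-SREBP-1a, with none higher. Under cyclic loess 6 were lower and 2 higher in each comparison, and 10 of the 15 lie in the 3 brightest groups, where 48.9% and 53.4% of all probe sets were lower. Tfam, which packages and transcribes mitochondrial DNA, had 5.39, 5.69 and 6.44 in alb-SREBP-1a∆P, 6.15, 6.70 and 6.99 in alb-SREBP-1a, and 6.42, 6.81 and 7.01 in C57Bl6 (-1.03 ± 0.14 against C57Bl6, adjusted p = 1.69e-05, and -0.88 ± 0.14 against alb-SREBP-1a, adjusted p = 0.000321). Gabpa, a subunit of the factor that binds the ETS core, was lower in alb-SREBP-1a∆P livers than in alb-SREBP-1a (-0.73 ± 0.11, adjusted p = 0.000244).

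Of 17 genes for electron carriers and coenzyme Q synthesis, 11 were lower in alb-SREBP-1a∆P and 6 in alb-SREBP-1a than in C57Bl6, with 0 higher in alb-SREBP-1a∆P and 2 higher in alb-SREBP-1a. Under cyclic loess 10 were lower and 2 higher in alb-SREBP-1a∆P. Cycs, cytochrome c, had 10.93, 11.10 and 11.31 in alb-SREBP-1a∆P, 11.33, 11.61 and 11.95 in alb-SREBP-1a, and 11.73, 11.92 and 12.20 in C57Bl6 (-0.83 ± 0.09 for alb-SREBP-1a∆P against C57Bl6, adjusted p = 2.61e-06). Coq8a, which supports coenzyme Q synthesis, was lower than C57Bl6 without overlap in alb-SREBP-1a∆P (-0.80 ± 0.07, adjusted p = 3.79e-07) and in alb-SREBP-1a (-0.55 ± 0.09, adjusted p = 0.000508). Of 33 other assembly factors, 22 were lower and 1 higher in alb-SREBP-1a∆P livers than in C57Bl6, and 4 were lower and 2 higher in alb-SREBP-1a. Of these 33, 27 lie in the 3 brightest groups, where 48.9% of all probe sets were lower in alb-SREBP-1a∆P livers than in C57Bl6, and 17 were lower and 3 higher under cyclic loess. The higher one in both was Cox20, a complex IV factor, at 0.41 ± 0.07 in alb-SREBP-1a∆P (adjusted p = 0.000187) and 0.55 ± 0.07 in alb-SREBP-1a (adjusted p = 7.14e-05). Of 13 citrate cycle enzymes, 8 were lower in alb-SREBP-1a∆P and 3 in alb-SREBP-1a than in C57Bl6, with Idh3a, the catalytic subunit of isocitrate dehydrogenase, differing in alb-SREBP-1a∆P by -0.94 ± 0.09 (adjusted p = 1.06e-06). All 13 lie in the 3 brightest groups, and under cyclic loess 6 were lower and 2 higher in alb-SREBP-1a∆P. Of 7 genes for the ATP synthase inhibitor, the nucleotide and phosphate carriers and the porins, 3 were lower in alb-SREBP-1a∆P and 2 in alb-SREBP-1a than in C57Bl6.

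Several probe sets were available for 17 of the 89 genes, 114 probe sets in all. Taking the mean over the probe sets of a gene left 10 genes higher and 44 lower in alb-SREBP-1a∆P livers than in C57Bl6, 5 and 51 against alb-SREBP-1a, and 13 and 11 between alb-SREBP-1a and C57Bl6. The probe sets of a gene differed in call for Atp5l, Atp5pb and Cox7a2l in alb-SREBP-1a against C57Bl6, for Atp5g2, Atp5h, Cox7b and Ndufb11 in alb-SREBP-1a∆P livers against C57Bl6, and for Cox7a2l, Ndufc1 and Ndufs3 between the lines. Families with processed copies in the genome, among them Atp5l with 6 probe sets and Uqcrb and Atp5g2 with 3 each, may share probe sequence with those copies, so their levels are less certain, and the part of such copies was not tested.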

How the data were processed

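Total RNA of 24 mouse livers (8 per genotype) was hybridised to 1-colour Affymetrix Mouse Gene 1.0 ST arrays. The values analysed are the deposited log2 intensities of 35556 probe sets, which the authors made with Affymetrix Expression Console by RMA (background correction, quantile normalization and summary of the probes of a set). The sources used here do not state whether the 24 arrays were normalized together. The alb-SREBP-1a∆P arrays have a narrower distribution than the others, and the part of such processing in their differences was not tested. No detection calls were used. Probe sets were named through the platform annotation: 21789 had 1 symbol, 1621 several and 12146 none. Chromosome and promoter came from RefSeq tables (GRCm38.p6), and no coordinates are given for the probe sets.

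Genotypes were taken from the labels. Each comparison was fitted on its own 16 arrays with limma 3.58.1 in R 4.3.3 (lmFit and eBayes, no covariate), with Benjamini-Hochberg adjustment over all probe sets of the table. The fit was also run on simulated arrays with independent noise. These lack the trend with brightness of the alb-SREBP-1a∆P arrays, so that run cannot speak to calls that rest on it. Standard errors are the difference divided by limma's moderated statistic. Tables and figures were made with Python 3.11.15, pandas 2.3.3, numpy 2.4.6 and matplotlib 3.10.9.

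The members and lists were chosen with earlier results of these data known. Genes were named per comparison by a rule: complex II in full, the 3 genes of smallest p in each role and list, the 5 largest differences in each direction, calls against the majority, and isoform families. Genes outside it, such as those singled out because they held under every scaling, were named after their values were seen.

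Alternatives tried were a single fit over the 24 arrays, a block for the replicate number, 3 scalings (quantile normalization, median centring and cyclic loess), dim probe sets left out, a variance trend, array weights, 1 probe set per gene, the mean over the probe sets of a gene, the t-test that the methods name, and leaving out arrays that stood apart. Depth in the sense of sequencing does not apply, and the number of arrays sets the precision.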

Additional observations from a re-analysis of the deposited data

Results flagged for a closer look

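In 186 groups of 8 arrays (62 named genes in 3 genotypes), a single liver lay apart from the other 7 in 4 groups by Dixon's criterion, and chance alone marks about 1 in 20 groups. Ndufs4 in alb-SREBP-1a∆P replicate 1 was the highest of its group at 9.94, with the next at 9.54. Cox6a2 in alb-SREBP-1a∆P replicate 1 was the lowest of its group at 6.08, with the next at 6.73. Cox7b in alb-SREBP-1a∆P replicate 5 was the highest of its group at 12.70, with the next at 12.61. Ndufa3 in alb-SREBP-1a replicate 2 was the lowest of its group at 9.65, with the next at 9.99.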

How the results depend on the processing

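The counts in alb-SREBP-1a∆P rest on the scaling. Against C57Bl6, the genes higher numbered 9 on the deposited values, 14 after quantile normalization, 3 after centring each array on its median and 20 after cyclic loess, the genes lower 43, 31, 56 and 22, and the median difference of the 89 genes was -0.21, -0.11, -0.37 and -0.02. Against alb-SREBP-1a, the genes higher numbered 5, 1, 0 and 5, the genes lower 50, 23, 72 and 14, and the median was -0.22, -0.10, -0.38 and -0.03. Leaving out the dimmer probe sets kept 82 of the 89 genes in the test, with 1 of them higher against alb-SREBP-1a. Of the 5 genes higher on the deposited values, 4 were dim and were removed by this setting, so it does not test their calls. Without alb-SREBP-1a∆P replicate 4, 3 genes were higher against alb-SREBP-1a. Of the 89 genes, 14 changed sign against C57Bl6 under quantile normalization, 7 under centring and 19 under cyclic loess, and 15, 6 and 26 against alb-SREBP-1a. Of these, 0 had been called against C57Bl6, and against alb-SREBP-1a 1 had been called under quantile normalization, 0 under centring and 3 under cyclic loess. Among the named genes, those that changed sign with a call on one side were Cox6a1 against C57Bl6 under cyclic loess (0.19, adjusted p = 0.048) and, against alb-SREBP-1a, Atp5e under quantile normalization (0.02) and cyclic loess (0.08), and under cyclic loess Ndufs8 (0.03) and the markers C1qa (0.01) and Alas2 (0.23). The cause was not tested. Over all probe sets, the share of calls that were higher was 57.1% against C57Bl6 and 40.6%, 31.9% and 51.2% under the 3 scalings, and 51.6% against alb-SREBP-1a and 41.1%, 23.9% and 52.2%. Between alb-SREBP-1a and C57Bl6 it was 63.0%, and 51.6% after quantile normalization. There, all counts of the 89 genes stayed within 1.5 times under every alternative tried, and without alb-SREBP-1a replicates 1 and 2 they were 10 higher and 8 lower.

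Same-numbered arrays did not pair: the correlation of their deviations passed 0.1 in 2 of 8 pairs for alb-SREBP-1a against C57Bl6, in 1 of 8 for alb-SREBP-1a∆P against C57Bl6 and in 2 of 8 for alb-SREBP-1a∆P livers against alb-SREBP-1a, and an array correlated best with its own number in 2, 3 and 2 of 8. With the replicate number as a block, 11 genes were higher and 9 lower for alb-SREBP-1a against C57Bl6, 9 and 41 for alb-SREBP-1a∆P against C57Bl6, and 2 and 41 for alb-SREBP-1a∆P livers against alb-SREBP-1a. Values are bounded by array background at the dim end, where the tissue isoforms lie, and no detection calls were used.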
